A study of Brassica napus with 2 samples.

Results

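The cell cycle and DNA replication genes of *Brassica napus* seeds were examined in 202 of 50366 unigenes, a unigene being a transcript cluster of the de novo assembly. A unigene was a member where the authors had assigned a *B. napus* gene to it and where its Swiss-Prot description held a word for cyclins, cell division, DNA replication, DNA polymerase, replication factors, replication protein A, the anaphase-promoting complex or mitosis. There were 28771 unigenes with an assigned gene, and the members stood for 183 genes. No member was found by the words "proliferating cell", so the sliding clamp PCNA is not analysed here. A further 20 unigenes held the words without an assigned gene, and 0 of them were called. The word rule itself uses no expression value. The library of yellow seeds came from Cy2Y (*YY*) and that of brown seeds from Cy2B (*yy*), near-isogenic lines bred by selfing from a single heterozygous plant. Whole seeds of field-grown plants were taken at 26 days after flowering, so seed coat, endosperm and embryo were measured together, and polyA RNA was sequenced from 1 library per line. The libraries held 23236592 estimated reads in yellow seeds and 23575447 in brown.

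In plants, D-type cyclins with the kinase CDKA promote entry into the cycle by acting on the retinoblastoma-related protein, which holds back E2F transcription factors. DNA is then copied after the MCM helicase has been loaded and opened, with the polymerases alpha, delta and epsilon, the clamp loader replication factor C and the single-strand binding replication protein A. B-type cyclins and the plant-specific B-type kinases act at entry into mitosis, the spindle checkpoint holds the chromosomes back, and the anaphase-promoting complex with its activator CDC20 marks mitotic cyclins for destruction. In developing seeds, most divisions of embryo and endosperm come before the phase of storage filling.

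These genes were nearly level between yellow and brown seeds. A unigene was called where a two-sided Fisher's exact test of its reads against all other reads of the library gave an adjusted p under 0.05 and the log2 ratio of yellow over brown was above 1 or below -1. By this rule 1 of the 202 members was higher in yellow seeds and 3 were lower, which are shares of 0.495% and 1.49%. Of all 50366 unigenes, 3.28% were higher and 1.47% lower by the same rule, and of those with an assigned gene and at least 20 reads in all, 2.45% were higher and 1.11% lower. With 1 library per line the test compares these libraries and not the lines, and it covers counting error only.

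The members were expressed at moderate levels. Their 176 unigenes with at least 20 reads had a median level of 12.1 RPKM over both libraries (reads per kilobase of unigene, scaled to the mapped reads of the library), against 9.20 RPKM for all such unigenes with an assigned gene. The other 26 members had fewer reads, 8 of them with 0 reads in yellow seeds and 3 with 0 in brown seeds, where the other library held at most 4 reads. Over the 176 members the median log2 ratio was 0.01, with a range of -1.24 to 1.79, and over all unigenes with an assigned gene it was -0.01. The log2 ratio lay within 0.5 of 0 in 155 members (88.1%), against 81.1% of all unigenes with an assigned gene. At like depth the shares were closer, 92.7% against 88.5% with at least 100 reads and 96.2% against 94.0% with at least 1000 reads. With the threshold on the log2 ratio set at 0.5 in place of 1, 3 members were higher and 9 lower, where of all 50366 unigenes 4.90% were higher and 2.99% lower. At an adjusted p under 0.05 and any ratio, 20 members (11.4%) were higher and 24 (13.6%) lower, against 13.0% and 13.1% of the unigenes with an assigned gene and at least 20 reads. Among the 78 members with at least 1000 reads, 15 (19.2%) were higher and 12 (15.4%) lower, against 20.2% and 23.5% of all unigenes with an assigned gene at that depth. In what follows, "past the exact test" means an adjusted p under 0.05 in Fisher's exact test at any ratio. Counts of a group past this test are to be read beside the shares of 13.0% higher and 13.1% lower given above.

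**Figure D1:**
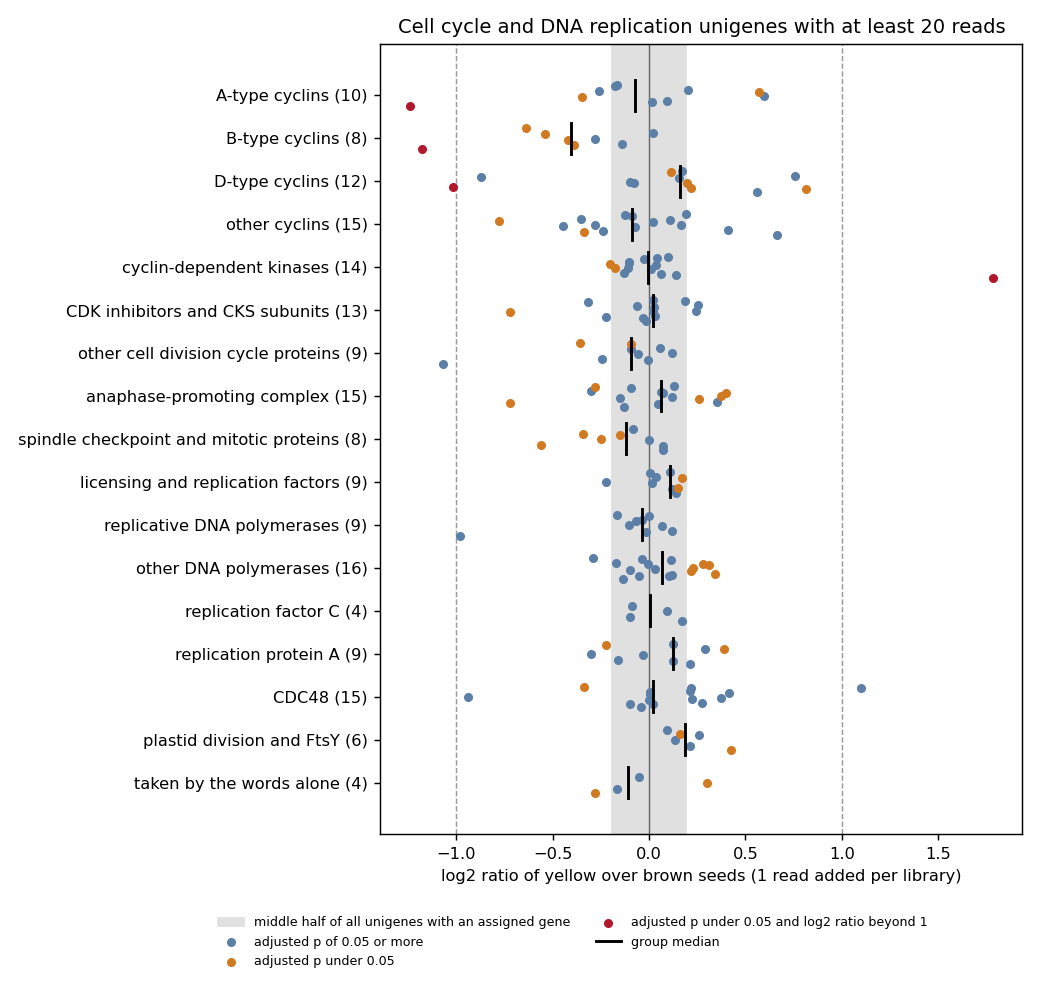
Log2 ratio of yellow over brown seeds for the 176 member unigenes with at least 20 reads (1 read added per library), in 17 role groups, with the number of unigenes in parentheses, the group median as a bar and the interquartile range of all unigenes with an assigned gene in grey. B-type cyclins have the lowest group median, -0.41, and only 4 members pass both thresholds of the call.

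D-type cyclins, which drive entry into the cycle, tended to the higher side. Of 12 measured unigenes, 4 (33.3%) were higher and 1 (8.33%) lower past the exact test, with a median log2 ratio of 0.16. The shares of all unigenes with an assigned gene and at least 20 reads were 13.0% and 13.1%. The summed reads of all 13 unigenes of the class were 6877 in yellow and 6234 in brown seeds, a ratio of 1.12 (95% interval 1.08 to 1.16, counting error only, as for every interval here). Cyclin-D3-1 (CYCD3-1, gene GSBRNA2T00126623001 on chromosome A08, 10314119 to 10315469, in the Darmor-bzh annotation used by the authors) had 639 reads in yellow seeds and 368 in brown, or 16.3 RPKM in yellow and 9.26 RPKM in brown. The ratio was 1.76 (1.55 to 2.01), with an adjusted p of 6.03e-17 in Fisher's exact test, and its log2 value stayed below the threshold of 1. In Arabidopsis this cyclin responds to cytokinin and holds cells in the dividing state. The other D-type cyclins past the test differed by less. Cyclin-D1-1 had 1212 reads in yellow seeds and 1057 in brown (ratio 1.16, 1.07 to 1.26), and cyclin-D4-1 had 1053 in yellow and 933 in brown (ratio 1.15, 1.05 to 1.25). Cyclin-D3-3 had the highest level of the class, 80.3 RPKM in yellow and 74.2 RPKM in brown seeds, with a ratio of 1.08 (1.02 to 1.15).

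The call of a lower D-type cyclin did not hold over its whole gene. A fragment of 581 bp matched to putative cyclin-D6-1 (CYCD6-1, GSBRNA2T00018504001, A09, 759828 to 761241) had 38 reads in yellow seeds and 79 in brown, a ratio of 0.488 (0.322 to 0.727) with an adjusted p of 0.00221 in Fisher's exact test. A longer fragment of the same gene had 129 reads in yellow seeds and 140 in brown. Summed, the gene had 167 reads in yellow seeds and 219 in brown, a ratio of 0.774 (0.629 to 0.951), which was not called when the reads were added per gene.

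B-type cyclins, which act with their kinases at entry into mitosis, lay on the lower side in yellow seeds. Of 8 measured unigenes, 7 (87.5%) had a log2 ratio below 0, against 51.3% of all measured unigenes with an assigned gene. Past the exact test 5 (62.5%) were lower and 0 were higher, against 13.1% and 13.0% of those unigenes. The median log2 ratio was -0.41. The summed reads of all 9 unigenes of the class were 4911 in yellow and 6086 in brown seeds, a ratio of 0.819 (0.788 to 0.850). Cyclin-B2-1 (CYCB2-1, GSBRNA2T00035763001, C09, 6119043 to 6120959) had 33 reads in yellow seeds and 77 in brown, or 2.23 RPKM in yellow and 5.13 RPKM in brown. Its ratio was 0.435 (0.280 to 0.662), with an adjusted p of 0.000459 in Fisher's exact test, and it was the only B-type cyclin that was called. Cyclin-B1-1 (CYCB1-1, GSBRNA2T00121584001, A01, 236590 to 238421) accumulates in cells at the border of G2 and mitosis in Arabidopsis. It had 418 reads in yellow seeds and 661 in brown, or 11.8 RPKM in yellow and 18.4 RPKM in brown, a ratio of 0.642 (0.566 to 0.726).

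Other B-type cyclins gave smaller differences. Putative cyclin-B3-1 had 280 reads in yellow seeds and 413 in brown (ratio 0.688, 0.589 to 0.802), and cyclin-B2-2 had 485 in yellow and 659 in brown (ratio 0.747, 0.663 to 0.841). The 2 unigenes of cyclin-B1-2 gave unlike values. The unigene assigned to GSBRNA2T00119711001 had 1557 reads in yellow seeds and 2070 in brown (ratio 0.763, 0.714 to 0.815), and that assigned to GSBRNA2T00083169001 on C02 had 1797 in yellow and 1795 in brown (ratio 1.02, 0.951 to 1.08). The second was the most abundant B-type cyclin, at 110 RPKM in yellow and 109 RPKM in brown seeds, and its best Swiss-Prot match was to the rice protein.

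A-type cyclins, which act in S phase and on the way to mitosis, were mixed. Of 10 measured unigenes 1 (10%) was higher and 2 (20%) were lower past the exact test. The summed reads of all 14 unigenes of the class were 3739 in yellow and 3839 in brown seeds, a ratio of 0.988 (0.944 to 1.03). Cyclin-A2-4 (CYCA2-4, GSBRNA2T00132095001, C06, 21493535 to 21495590) had 704 reads in yellow seeds and 481 in brown, a ratio of 1.48 (1.32 to 1.67). Cyclin-A2-2 had 581 reads in yellow seeds and 750 in brown, a ratio of 0.786 (0.704 to 0.877). A short unigene of cyclin-A1-1 (CYCA1-1, GSBRNA2T00060337001, C08, 6142243 to 6145263) was called lower on few reads, 14 in yellow and 35 in brown seeds (ratio 0.406, 0.202 to 0.774), with an adjusted p of 0.0284 in Fisher's exact test. A more abundant cyclin-A1-1 unigene had 791 reads in yellow seeds and 907 in brown (ratio 0.885, 0.803 to 0.974) and did not pass the test.

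The remaining cyclins include those of transcriptional kinases (classes C, H, L and T) and the U class. Of 15 measured unigenes 0 were higher and 2 (13.3%) lower past the exact test. Cyclin-U4-1 (CYCU4-1, GSBRNA2T00045190001, A04, 19002402 to 19003258) had 217 reads in yellow seeds and 378 in brown, or 10.1 RPKM in yellow and 17.4 RPKM in brown, a ratio of 0.582 (0.491 to 0.690). Cyclin-T1-4, a partner of the kinases that release RNA polymerase II, had 808 reads in yellow seeds and 1035 in brown (ratio 0.792, 0.722 to 0.869). Cyclin-H1-1, of the CDK-activating kinase, had 596 reads in yellow seeds and 636 in brown (ratio 0.951, 0.849 to 1.06).

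**Figure D2:**
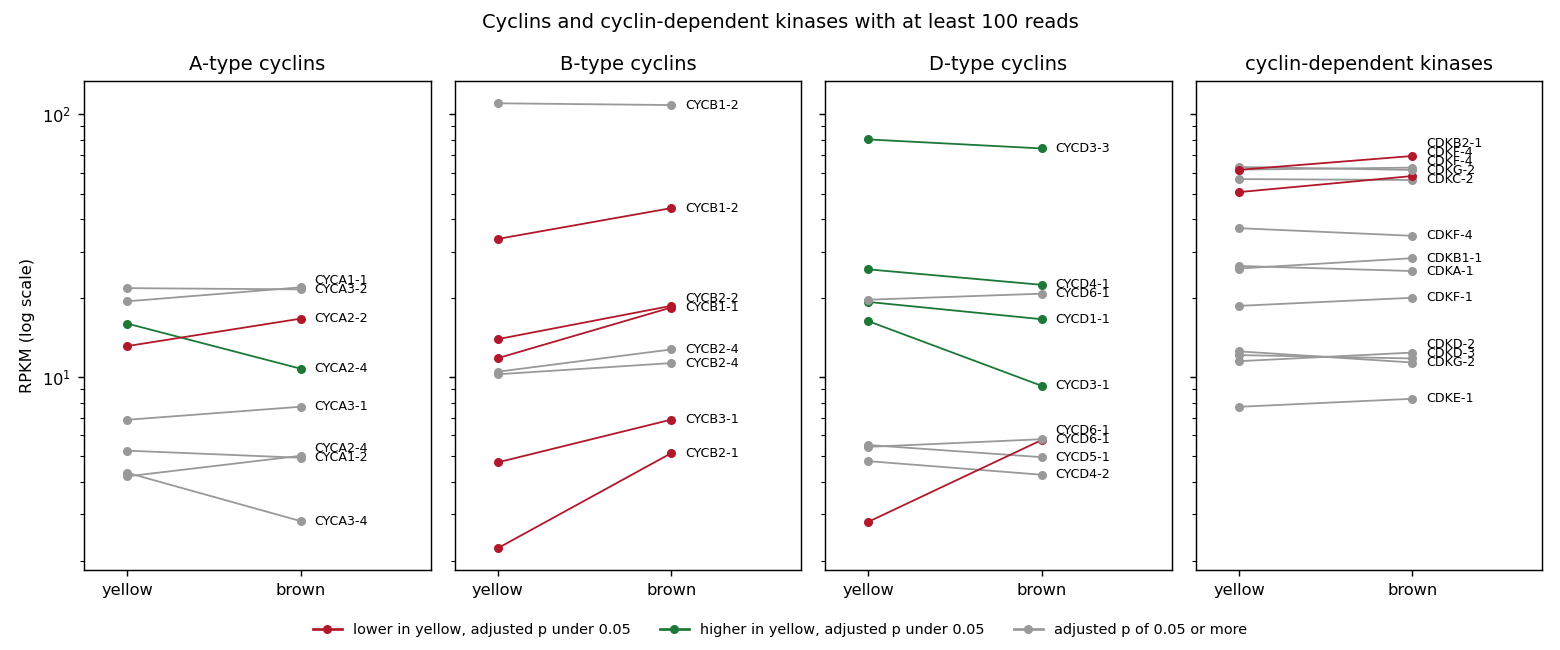
Level in RPKM (log scale) in the yellow and the brown seed library for cyclin and cyclin-dependent kinase unigenes with at least 100 reads, each line being a unigene, coloured by the exact test. Most lines are flat, CYCD3-1 (16.3 RPKM in yellow and 9.26 RPKM in brown seeds) stands out upwards in yellow, and several B-type cyclins lie lower in yellow.

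Cyclin-dependent kinases were nearly level in their summed reads. The sums of 16 unigenes, 14 of them measured, were 22351 reads in yellow and 23413 in brown seeds, a ratio of 0.969 (0.951 to 0.987). Abundant unigenes of CDKF-4, CDKC-2 and CDKG-2 weigh in these sums. Of the 14 measured, 1 (7.14%) was higher and 2 (14.3%) were lower past the exact test. The lower ones were CDKB2-1 and CDKG-2. CDKA-1, the kinase at the centre of the plant cycle, had 1145 reads in yellow seeds and 1111 in brown (ratio 1.05, 0.962 to 1.14). CDKB2-1, whose kinase acts in G2 and mitosis, had 2832 reads in yellow seeds and 3243 in brown (ratio 0.886, 0.842 to 0.932), and CDKB1-1 had 828 in yellow and 919 in brown (ratio 0.914, 0.831 to 1.01). CDKG-2 had 3512 reads in yellow seeds and 4103 in brown (ratio 0.868, 0.830 to 0.909). The only member called higher was a fragment of 244 bp matched to CDKF-4 (GSBRNA2T00067889001), with 16 reads in yellow seeds and 4 in brown, a ratio of 4.06 (1.31 to 16.7) and an adjusted p of 0.0459 in Fisher's exact test, and it was not called with median-ratio scaling. The 2 most abundant CDKF-4 unigenes had ratios of 1.03 (0.977 to 1.08) and 0.983 (0.934 to 1.03).

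Inhibitors and small subunits of these kinases were level as well. Of 13 measured unigenes only SMR1, a SIAMESE-related inhibitor that in Arabidopsis favours the switch from division to endoreduplication, passed the exact test. It had 93 reads in yellow seeds and 156 in brown, a ratio of 0.605 (0.463 to 0.787). SIM, the founding SIAMESE protein, had 381 reads in yellow seeds and 452 in brown (ratio 0.855, 0.744 to 0.982). The abundant CKS2 docking subunit had 1675 reads in yellow seeds and 1719 in brown, or 113 RPKM in yellow and 114 RPKM in brown (ratio 0.989, 0.924 to 1.06), and KRP5 had 310 in yellow and 309 in brown.

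Mitotic exit and checkpoint genes gave small differences, mostly downwards in yellow seeds. CDC20 (GSBRNA2T00025564001), the activator of the anaphase-promoting complex, was the most abundant of them, with 5146 reads in yellow seeds and 6332 in brown, or 129 RPKM in yellow and 157 RPKM in brown. Its ratio was 0.825 (0.795 to 0.856), with an adjusted p of 4.46e-23 in Fisher's exact test. Another unigene matched to CDC20, assigned to another gene, was not lower past the exact test. The checkpoint gene MAD2 had 356 reads in yellow seeds and 459 in brown (ratio 0.787, 0.683 to 0.906), and MAD1 had 1281 in yellow and 1443 in brown (ratio 0.901, 0.835 to 0.972). The BUB3 gene GSBRNA2T00116320001 on C03, which had 2 unigenes, summed to 522 reads in yellow seeds and 653 in brown (ratio 0.811, 0.721 to 0.911), and a BUB3 unigene of another gene had 659 in yellow and 709 in brown (ratio 0.943, 0.847 to 1.05). In the group of spindle checkpoint and mitotic proteins, 4 of 8 unigenes (50%) were lower past the exact test and 0 higher. The shares of all unigenes with an assigned gene and at least 20 reads were 13.1% and 13.0%. Of the 4, 2 belong to the 1 BUB3 gene on C03. These 2 and MAD1 passed narrowly, with adjusted p of 0.0481, 0.0499 and 0.0441 in Fisher's exact test.

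The subunits of the anaphase-promoting complex itself went both ways. APC4 had 310 reads in yellow seeds and 238 in brown (ratio 1.32, 1.11 to 1.57), APC11 had 271 in yellow and 212 in brown (ratio 1.30, 1.08 to 1.56) and APC1 had 1067 in yellow and 905 in brown (ratio 1.20, 1.09 to 1.31). The CDC27A gene GSBRNA2T00104996001 on A05 was lower, with 101 reads in yellow seeds and 168 in brown over its unigenes (ratio 0.610, 0.472 to 0.785), whereas a CDC27A unigene of another gene had 253 in yellow and 236 in brown (ratio 1.09, 0.907 to 1.30). APC2, the cullin of the complex, had 884 reads in yellow seeds and 869 in brown (ratio 1.03, 0.939 to 1.13). Over the complex with CDC20, 3 of 15 measured unigenes (20%) were higher and 2 (13.3%) lower past the exact test.

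The genes of DNA replication were level or slightly higher in yellow seeds. Of 9 measured licensing and replication factors, 8 had a log2 ratio above 0 (6 with median-ratio scaling, under which MCM2 and MCM3 lay just below 0), and the summed reads of all 10 unigenes were 13210 in yellow and 12700 in brown seeds, a ratio of 1.05 (1.03 to 1.08). For the helicase subunits, MCM6 had 1957 reads in yellow seeds and 1763 in brown (ratio 1.13, 1.06 to 1.20) and MCM5 had 2168 in yellow and 1983 in brown (ratio 1.11, 1.04 to 1.18), and these 2 passed the exact test. MCM2 had 3038 reads in yellow seeds and 3066 in brown, or 42.4 RPKM in yellow and 42.2 RPKM in brown, a ratio of 1.01 (0.956 to 1.06). MCM3 had a ratio of 1.01 (0.956 to 1.07) and MCM4 of 1.08 (1.01 to 1.15).

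None of the 9 measured unigenes of the replicative polymerases passed the exact test in either direction. The lowest was a fragment of the polymerase alpha catalytic subunit with 12 reads in yellow seeds and 25 in brown (ratio 0.487, 0.223 to 1.01). The main unigene of that subunit had 1947 reads in yellow seeds and 2000 in brown (ratio 0.988, 0.927 to 1.05), the catalytic subunit of delta 1627 in yellow and 1574 in brown (ratio 1.05, 0.978 to 1.12) and that of epsilon 2414 in yellow and 2445 in brown (ratio 1.00, 0.947 to 1.06). The 4 subunits of replication factor C had ratios between 0.933 (0.875 to 0.994) for subunit 1 and 1.13 (1.02 to 1.24) for subunit 2, and 0 of them passed the test.

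For replication protein A, which coats single-stranded DNA at the fork, 2 unigenes of the large subunit differed in opposite directions. The unigene assigned to GSBRNA2T00044081001 had 3855 reads in yellow seeds and 2986 in brown, or 57.5 RPKM in yellow and 43.9 RPKM in brown, a ratio of 1.31 (1.25 to 1.37) with an adjusted p of 8.32e-27 in Fisher's exact test. The unigene assigned to GSBRNA2T00146911001 on C02 had 4185 reads in yellow seeds and 4961 in brown, or 43.3 RPKM in yellow and 50.6 RPKM in brown, a ratio of 0.856 (0.821 to 0.892). Over all 10 unigenes of the group the ratio of the summed reads was 1.03 (1.00 to 1.06).

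**Figure D3:**
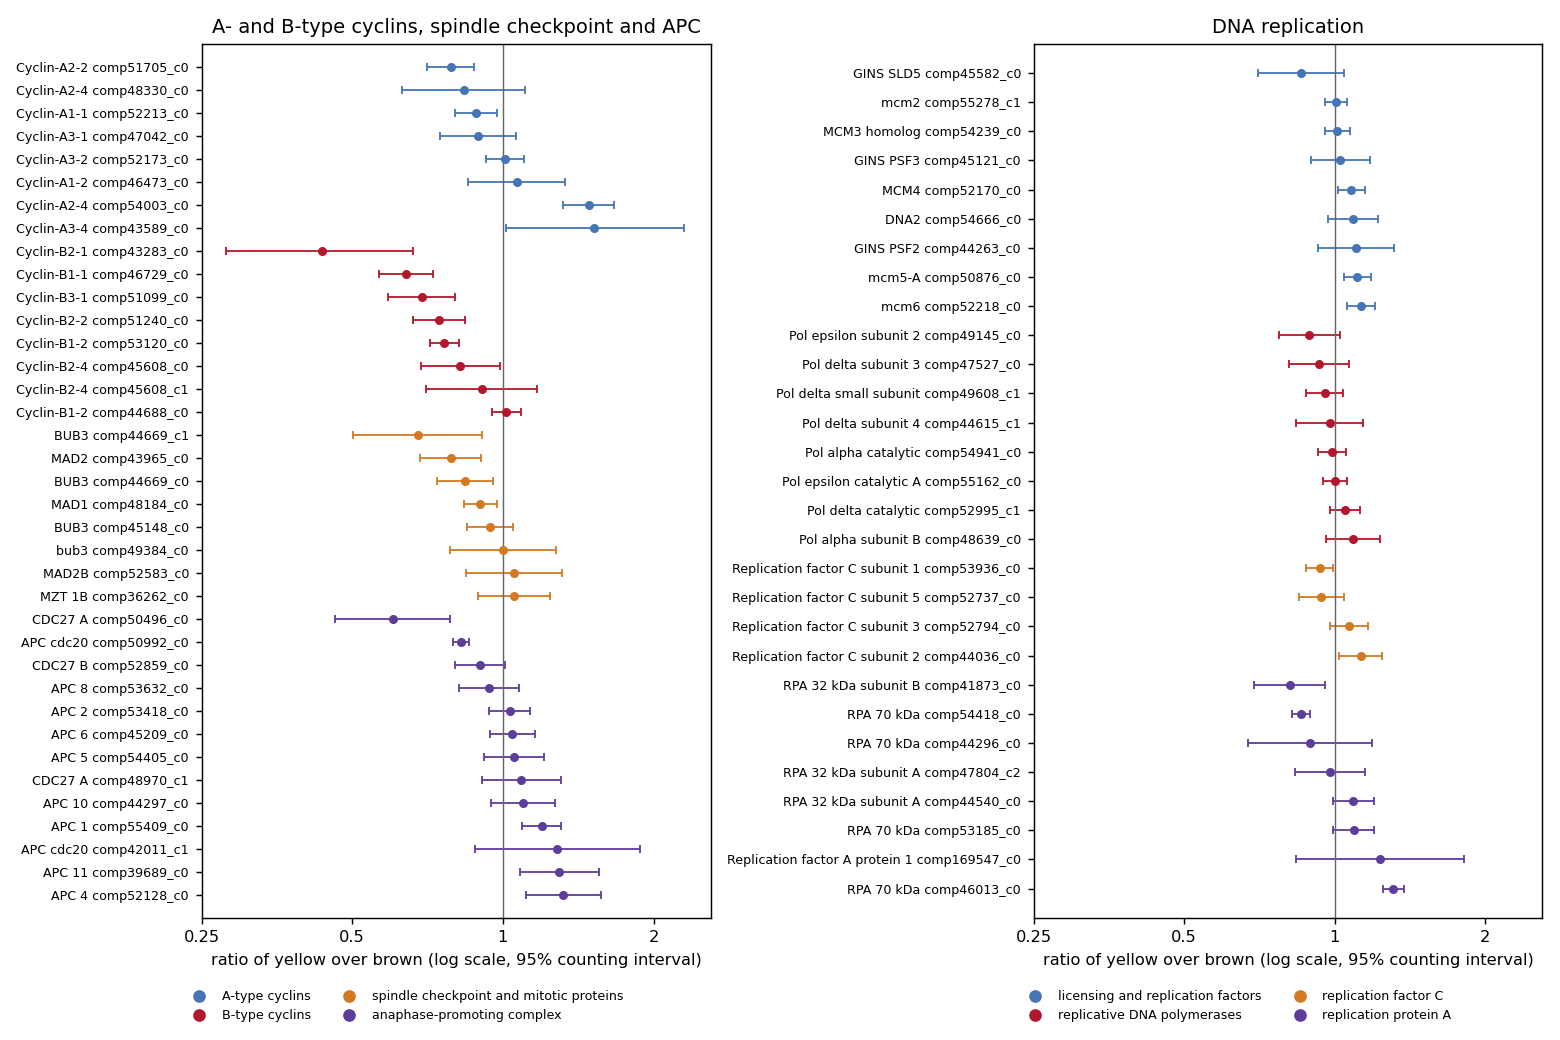
Ratio of yellow over brown seeds (log scale) with its 95% counting interval for unigenes with at least 100 reads, on the left for A- and B-type cyclins, the spindle checkpoint and the anaphase-promoting complex (APC), and on the right for DNA replication. B-type cyclins reach down to 0.435, while the replicative polymerases shown lie around 1.

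Other DNA polymerases were a mixed group, named here by their best Swiss-Prot match, which was often bacterial. A bacterial match does not show that the plant gene encodes an organellar or repair polymerase. Of 16 measured unigenes 5 (31.25%) were higher and 0 lower past the exact test, against 13.0% and 13.1% of all such unigenes with an assigned gene. The ratio of the summed reads of all 17 unigenes was 1.07 (1.05 to 1.10). A unigene matched to the gamma/tau subunit of bacterial polymerase III had 366 reads in yellow seeds and 293 in brown (ratio 1.27, 1.08 to 1.48), and a more abundant unigene with the same match had 2533 in yellow and 2748 in brown (ratio 0.935, 0.886 to 0.987). The plastid division genes leaned the same way, with 6 of 6 unigenes above 0 and 2 past the test. For FtsZ2-2, a tubulin-like protein of the plastid division ring, 2 unigenes of the gene GSBRNA2T00109171001 summed to 588 reads in yellow seeds and 483 in brown (ratio 1.24, 1.09 to 1.40). FtsZ1 had 1673 reads in yellow seeds and 1592 in brown (ratio 1.07, 0.995 to 1.14).

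CDC48 was the most abundant gene of the whole set and was level. CDC48A (GSBRNA2T00014354001, A05, 20313606 to 20316703), an ATPase that extracts ubiquitylated proteins and whose work is not limited to division, had 14745 reads in yellow seeds and 14976 in brown. The level was 219 RPKM in both libraries and the ratio was 0.999 (0.976 to 1.02). Among 9 measured unigenes of other cell division cycle proteins, CDC5, which belongs to the splicing machinery, had 5074 reads in yellow seeds and 5488 in brown (ratio 0.938, 0.903 to 0.975). The words also took 4 unigenes that do not belong to the cycle by name, among them the chloroplast ribosome-recycling factor with 948 reads in yellow and 780 in brown seeds (ratio 1.23, 1.12 to 1.36). Without these, CDC48, the group of other DNA polymerases and the plastid genes, 135 measured unigenes remained, with a median log2 ratio of -0.02. Past the exact test 12 of them (8.89%) were higher and 22 (16.3%) lower. Of all unigenes with an assigned gene and at least 20 reads, the shares were 13.0% and 13.1%. The 135 still include the cyclins of transcriptional kinases, CDC5, CCAR1 and every measured cyclin-dependent kinase, CDKC-2 and CDKG-2 among them. CDKG-2, cyclin-T1-4 and CDC5 are among the 22 lower.

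The medians of both subgenomes lay near 0. The median log2 ratio was -0.02 over 61 measured members on A chromosomes and 0.02 over 96 on C chromosomes, against -0.01 for all unigenes on either. There were 14 genes with more than 1 member unigene, so 33 of the unigenes share a gene with another, and homoeologous copies that are nearly alike may share reads.

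Genes of the same processes that the words did not take were counted in 15 related lists of 141 unigenes, 126 of them measured. At any ratio 9 (7.14%) were higher and 25 (19.8%) lower past the exact test, and their median log2 ratio was -0.07. Of all unigenes with an assigned gene and at least 20 reads, 13.0% were higher and 13.1% lower past that test. By the call, 1 was higher and 1 lower, both fragments with few reads, a topoisomerase 1 fragment with 42 reads in yellow seeds and 13 in brown and a ribonucleotide reductase fragment with 5 in yellow and 19 in brown seeds. The largest list was SMC, cohesin and condensin proteins, which hold and fold chromosomes. Of its 29 measured unigenes, 2 (6.90%) were higher and 6 (20.7%) lower past the exact test. The ratio of the summed reads of all 35 was 0.991 (0.979 to 1.00). The 65-kDa microtubule-associated proteins (MAP65) had 1 higher (9.09%) and 2 lower (18.2%) of 11 measured, with a ratio of summed reads of 0.986 (0.961 to 1.01). Single genes named from the lists here were picked after their values were seen. KNOLLE, the syntaxin that fuses vesicles at the forming cell plate, summed to 159 reads in yellow seeds and 292 in brown over 3 unigenes of 1 gene (ratio 0.552, 0.453 to 0.672), and 1 of the 3 passed the exact test. The spindle protein TPX2 had 885 reads in yellow seeds and 1247 in brown at its main unigene, a ratio of 0.720, with an adjusted p of 2.2e-12 in Fisher's exact test. MAP65-3, a microtubule bundler of the phragmoplast, had 1870 reads in yellow seeds and 2352 in brown (ratio 0.807), and the kinase Aurora-1 had 1272 in yellow and 1488 in brown (ratio 0.867). MAP65-1 was on the other side, with 4297 reads in yellow seeds and 4009 in brown (ratio 1.09).

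Core histones, made mainly in S phase, had fewer summed reads in yellow seeds, and their near-identical copies may share reads. Of 23 measured unigenes 20 had a log2 ratio below 0, and 8 (34.8%) were lower and 2 (8.70%) higher past the exact test. Over all 24 unigenes the sums were 65720 reads in yellow seeds and 81435 in brown, a ratio of 0.819 (0.810 to 0.827). An H3.2 unigene had 7941 reads in yellow seeds and 11005 in brown (ratio 0.732), and an H4 unigene had 11974 in yellow and 15817 in brown (ratio 0.768). The most abundant H3.3 unigene, a variant also made outside S phase, had 12257 reads in yellow seeds and 11948 in brown (ratio 1.04). DNA topoisomerase 2 had 4413 reads in yellow seeds and 5659 in brown (ratio 0.791). RBR1, the retinoblastoma-related protein, had 2189 reads in yellow seeds and 2003 in brown at its main unigene (ratio 1.11), the ribonucleotide reductase large subunit had 4771 in yellow and 4081 in brown (ratio 1.19), and 0 of 6 measured unigenes of the origin recognition complex passed the test. Of 14 measured unigenes of E2F and retinoblastoma-related proteins 1 was higher and 1 lower past the test, the lower being E2FF with 157 reads in yellow seeds and 218 in brown (ratio 0.731). Of 3 flap endonuclease unigenes 1 was lower past the test, with 115 reads in yellow seeds and 167 in brown (ratio 0.699).

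**Figure D4:**
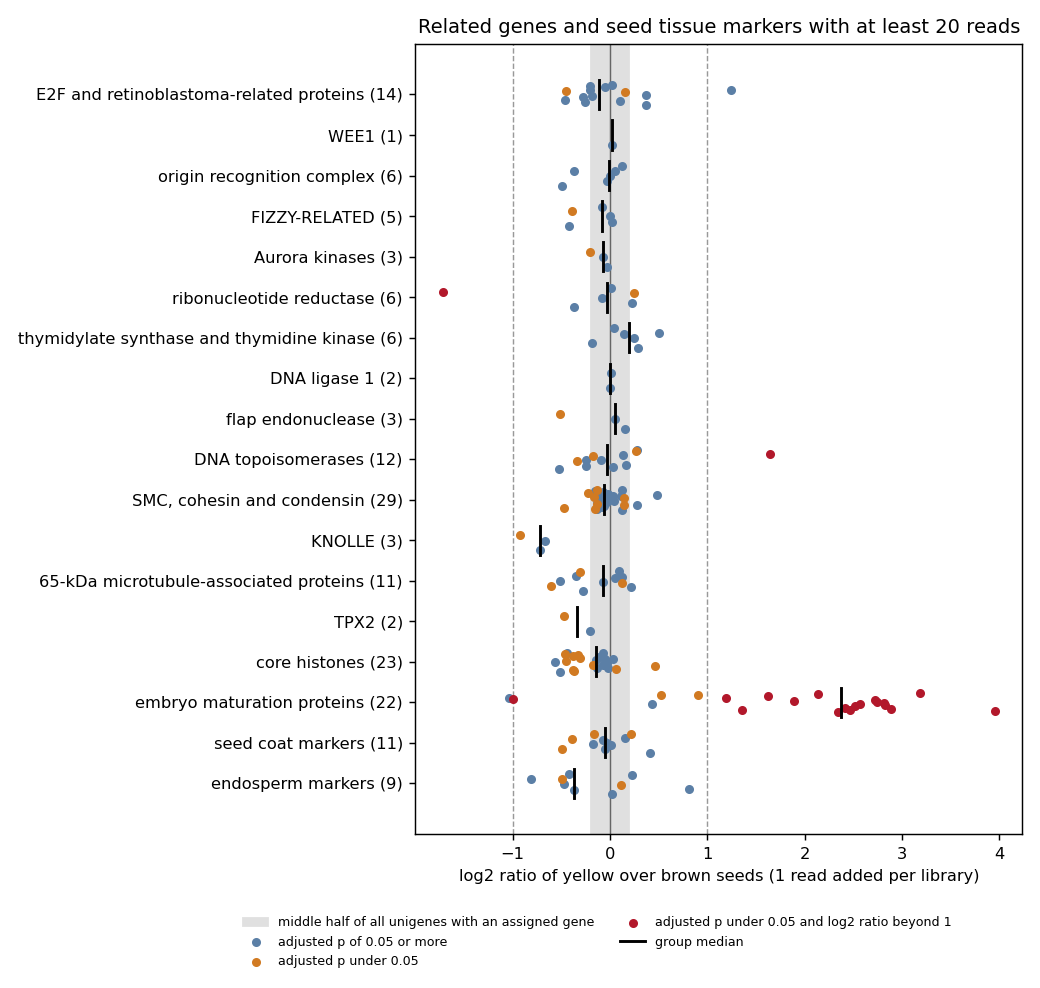
Log2 ratio of yellow over brown seeds (1 read added per library) for unigenes with at least 20 reads in 15 related gene lists and 3 lists of seed tissue markers, with list medians as bars and the interquartile range of all unigenes with an assigned gene in grey. Most related genes lie near 0, KNOLLE lies below (median -0.72), and embryo maturation genes lie far above (median 2.38).

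Of the seed tissue markers, those of embryo maturation differed most. Napin, cruciferin and oleosin genes of embryo maturation were higher in yellow seeds in 19 of 24 unigenes and lower in 2, past the exact test and with a log2 ratio beyond 0.5, with a summed level of 2203 RPKM in yellow and 535 RPKM in brown seeds. The endosperm list rested on FIE, bHLH95 and MEDEA, the last with at most 18 reads per unigene in yellow and 12 in brown seeds. Whether these genes, FIE above all, are limited to endosperm in these seeds was not tested. The values below are therefore levels of the list and not of the tissue. Of its 9 measured unigenes 1 was higher and 1 lower past the exact test, neither with a log2 ratio beyond 0.5. The median log2 ratio was -0.37, with 5 unigenes below 0 and 4 above. The summed level of all 12 was 97.2 RPKM in yellow and 112 RPKM in brown seeds. The highest level of a single unigene was 50.8 RPKM in yellow and 47.0 RPKM in brown seeds. The ZHOUPI gene bHLH95 had 693 reads in yellow seeds and 993 in brown at its main unigene (ratio 0.708). Of 11 measured seed coat markers 1 was higher and 3 were lower past the exact test, and all 11 lay within a log2 ratio of 0.5. Their median log2 ratio was -0.05, with 7 below 0 and 4 above. The summed level of all 12 was 909 RPKM in yellow and 867 RPKM in brown seeds. More than any other, 1 unigene weighs in these sums, as the highest single level was 551 RPKM in yellow and 476 RPKM in brown. The part of these tissues in the differences of the mitotic genes was not tested. In whole seeds, fewer dividing cells and less RNA per dividing cell cannot be told apart.

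No difference among the members can be set against the spread between seed batches, which 1 library per line does not show. With the biological coefficient of variation set to an assumed 0.1 in edgeR's exact test, 1 member was higher and 2 were lower at an adjusted p under 0.05 and any ratio, against 1.98% and 1.04% of all 50366 unigenes. These were CYCD3-1 (adjusted p 0.0148 by edgeR), CYCB2-1 (0.0368) and CYCU4-1 (0.0431). With an assumed coefficient of 0.2 or of 0.4, 0 members passed by edgeR, against 20 higher and 24 lower by Fisher's exact test. Of all unigenes, 0.691% were higher and 0.195% lower with 0.2, and 0.175% and 0.0357% with 0.4.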

How the data were processed

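Per the labels and the study's methods, polyA RNA of whole seeds was sequenced as paired ends. The authors filtered the reads, assembled both libraries together with Trinity, mapped the reads to the unigenes and assigned *B. napus* cv. Darmor-bzh genes by Megablast. Which aligner and counter were used, and the name of the genome build, are not given in the sources at hand. Estimated counts were deposited by the authors unscaled. For RPKM the authors divided them by unigene length and by the mapped reads of the library. The deposited table holds no replicate.

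Counts were rounded to whole numbers and tested with Fisher's exact test (SciPy 1.17.1, two-sided), with Benjamini-Hochberg adjustment over all 50366 unigenes. Ratios are of reads per library total, with exact 95% binomial intervals. Log2 ratios have 1 read added per library and need at least 20 reads over both libraries ("measured"). The study's methods name DEGseq, which was not installed. Role groups and lists were made by words of the Swiss-Prot description. The script was tested on simulated data. Members and lists were chosen with earlier results of these data known. The naming rule took the called members, in each role group up to 4 with the highest mean RPKM and those with the highest and lowest log2 ratio, and other unigenes of the same genes. Not all of these are described above. Among those left out are cyclin-A3-2 (ratio 1.01), cyclin-A3-4 (1.52), APC6 (1.05) and APC10 (1.10). Outside the rule, cyclin-B3-1, CDKA-1, CDKB1-1, MAD2, APC1, APC11, the second CDC27A gene, polymerase epsilon and the genes of the related lists were chosen after their values were seen. Alternatives used TMM (edgeR 4.0.16) and median-ratio (DESeq2 1.42.0) scaling, other thresholds and filters, and assumed spreads in edgeR. No columns of fold changes or p-values were used, and sequences are not analysed here. Python 3.11.15, numpy 2.4.6, pandas 2.3.3 and R 4.3.3 were used.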

Additional observations from a re-analysis of the deposited data

How the results depend on the processing

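The members called higher numbered 1 and those called lower 3. The counts were the same with TMM scaling, with adjustment over unigenes with at least 20 reads and with unigenes that lack an assigned gene included. With median-ratio scaling 0 were higher and 3 lower, and adding reads per assigned gene, an alternative chosen after seeing the data, gave 1 higher and 2 lower. A log2 threshold of 0.5 gave 3 higher and 9 lower members, and 2468 and 1507 of all unigenes, against 1650 and 738 at the threshold of 1. With halved counts, so at lower depth, 0 members were called higher and 0 lower. With the biological coefficient of variation assumed to be 0.1, 0.2 and 0.4 in edgeR, the members higher numbered 0, 0 and 0 and those lower 1, 0 and 0, while of all unigenes 826, 348 and 88 were higher and 370, 98 and 18 lower. The median log2 ratio of the members stayed between -0.02 and 0.01 in each alternative run. The naming rule took 100 unigenes. Of their ratios, 1 crossed 1 with TMM scaling (CDC48A, 0.999) and 5 with median-ratio scaling (each at most 1.01 before it). None of these had passed the exact test. No paired analysis was possible because each line has 1 library, and for the same reason no replicate could be left out. Calls on fewer than 50 reads, those of CYCA1-1 and CDKF-4, rest on depth that leaves wide intervals.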
